A study of Mus musculus with 12 samples.

Results

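MHC class II molecules are pairs of an alpha and a beta chain that carry peptides from engulfed proteins to the cell surface, where CD4+ T cells read them. The chains are built with the invariant chain in the groove. Proteases cut that chain down, and the DM molecule then exchanges the remaining piece for a peptide. Transcription of the whole set depends on the coactivator CIITA, which binds no DNA itself and acts through factors sitting on the X and Y boxes of class II promoters. B cells, dendritic cells and macrophages hold these genes on, and interferon gamma can turn them on in other cells, gut epithelium among them.

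The 7 genes described here were taken by their gene names from the count table of 54532 genes, and all 7 were found. They are the classical chains H2-Aa, H2-Ab1 and H2-Eb1, the DM chains H2-DMa and H2-DMb1, the invariant chain Cd74 and the coactivator gene Ciita. The colon of 12 male mice, labelled wild-type C57BL/6J and 5 weeks old, was sequenced in 4 groups of 3. Control mice received no dextran sulfate sodium (DSS), a polymer given to cause acute colitis, and the model, Rhy and DXM mice all received it. Rhy mice were also given rhynchophylline, an alkaloid, at a dose that the labels do not tie to the sequenced mice. DXM mice were given dexamethasone, a glucocorticoid, at 4 mg/kg. The labels number the mice 1 to 3 in each group and name no litter or batch.

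Total counts were 14346478 to 17749716 per library. The epithelial marker Epcam stood at 1144 to 2207 CPM (counts relative to a TMM-scaled library size) in all 12 libraries. Of the 9 epithelial markers listed, Krt8, Krt19 and Cdh1 varied about as little, and others varied far more. Car1 ran from 509 to 17736 CPM, Muc2 from 351 to 6710 CPM and Krt20 from 371 to 2687 CPM. Epcam marks epithelium of any gut segment and does not tell colon from other gut. Model 1 and model 2 were closer than any other pair, with a common dispersion of 0.00201 between them against 0.0604 for the next pair, and counting them as 1 library is given where it matters. Hoxb13, a homeobox gene of the hindgut, stood at 0 to 1.49 CPM in control 3, model 3 and Rhy 1 and at 72.0 to 316 CPM in the other 9 libraries.

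The strain label was not borne out in every library. C57BL/6 mice are known to carry a deletion at the I-E alpha gene and to make no transcript of it, and the deposited table lists that gene as the pseudogene H2-Ea-ps. It stood at 13.3 to 133 CPM in control 1, model 1, model 2, DXM 1 and all 3 Rhy mice, and at 1.37 to 5.63 CPM in control 2, control 3, model 3, DXM 2 and DXM 3. The counts of the first 7 libraries go against the label, and the genotype of the mice was not measured. The other 5 libraries were not free of such counts, with 25 (control 3) to 90 (DXM 2). In FPKM, H2-Ea-ps per H2-Eb1 was 0.450 in model 3 and 1.05 to 2.29 in the other 11 libraries. Control 2, control 3, DXM 2 and DXM 3 were among those 11. The ratio of H2-Eb1 to H2-Ab1, given further on, divided along the same line. That of H2-Aa to H2-Ab1 was lower in the same 5 libraries, but its largest gap lay elsewhere. Whether the mice were of 1 strain was not tested. The comparisons are therefore also given without the 7 libraries high in H2-Ea-ps and without the other 5, settings chosen after seeing the data. These sets leave groups with 1 library, whose spread is taken to be that of the others. Each p-value sets a difference between groups against the estimated spread between mice within groups. Model 1 and model 2 count as 2 mice in it unless stated.

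In the deposited table (mm10), 5 of the 7 genes lie close together in the class II region of chromosome 17. H2-DMa (ENSMUSG00000037649) spans chr17:34135182-34139101 and H2-DMb1 (ENSMUSG00000079547) chr17:34153072-34160230, both on the plus strand. H2-Ab1 (ENSMUSG00000073421) spans chr17:34263209-34269418 on the plus strand. H2-Aa (ENSMUSG00000036594) spans chr17:34282744-34287827 on the minus strand, and H2-Eb1 (ENSMUSG00000060586) chr17:34305877-34316199 on the plus strand. Ciita (ENSMUSG00000022504) spans chr16:10480059-10528418, and Cd74 (ENSMUSG00000024610) is a single gene outside this region. H2-DMb1 shared 22.7% of its 50-base words with its neighbour H2-DMb2, so its counts are the least certain of the set. By the exons of GENCODE M21, H2-DMa overlaps Brd2 and Ciita overlaps Dexi, each on the opposite strand, and Cd74 overlaps the microRNA gene Mir5107 on its own strand. H2-DMa starts at 34119541 there and at 34135182 in the deposited table. Whether the Brd2 overlap lies inside the gene as counted was not examined. Whether strand was used in counting is not given in the sources used here.

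RefSeq promoter windows (GRCm38.p6) were held for 4 of the 7 genes. The 150 bases before the RefSeq start of 3 of them are printed because H2-Aa and H2-Eb1 varied together in the data while H2-DMb1 lay between 2 patterns. Capitals mark the letters of an X box (AG, any 2 bases, AC, any 2 bases, ATG), ATTGG of a Y box (CCAAT on the other strand), and TGACGTCA, a cyclic AMP response element that was added after the sequence of H2-Aa was seen.
H2-Aa, chr17:34287824-34287973, minus strand: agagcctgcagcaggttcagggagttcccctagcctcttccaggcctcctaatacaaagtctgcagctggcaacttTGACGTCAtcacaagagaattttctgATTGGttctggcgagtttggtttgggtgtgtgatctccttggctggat
H2-Eb1, chr17:34305717-34305866, plus strand: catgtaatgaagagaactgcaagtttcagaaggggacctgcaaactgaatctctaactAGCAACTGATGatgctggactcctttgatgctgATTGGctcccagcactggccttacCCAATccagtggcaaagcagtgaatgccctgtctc
H2-DMb1, chr17:34153041-34153190, plus strand: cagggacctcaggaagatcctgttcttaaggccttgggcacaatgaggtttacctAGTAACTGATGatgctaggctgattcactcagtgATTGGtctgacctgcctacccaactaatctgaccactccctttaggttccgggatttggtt
H2-Eb1 and H2-DMb1 held the X box letters 92 and 95 bases before the start and ATTGG 59 and 61 bases before it. H2-Aa held ATTGG 48 and TGACGTCA 74 bases before the start. The X box letters as written here had no match in its 250-base window, which does not show that H2-Aa lacks an X box. The first of the 2 listed starts of H2-DMa held none of these 3 words, and the second held ATTGG 198 bases upstream. On either strand of 250 bases, 2.6% of 32851 promoters held the X box letters, 33.8% held ATTGG, 1.55% held TGACGTCA and 1.08% held both of the first 2. The motif words do not overlap one another in the printed stretches. The deposited table starts H2-DMb1 earlier than RefSeq does, so 119 of its 150 printed bases, the marked ones among them, lie inside the gene as that table has it, against 4 for H2-Aa and 0 for H2-Eb1. A match of letters is a description and not a measured binding site.

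The beta chain of the I-A molecule, H2-Ab1, was measured at 226, 64.7 and 63.5 CPM in control mice 1 to 3 and at 83.4, 73.8 and 239 CPM in model mice. In Rhy mice it was at 37.7, 127 and 110 CPM, and in DXM mice at 131, 90.8 and 139 CPM. Control 1 and model 3 were the highest libraries and Rhy 1 the lowest, so each group's range overlapped the ranges of the others.

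Its partner H2-Aa, the I-A alpha chain, stood at 250, 28.4 and 13.6 CPM in control mice and at 57.2, 56.6 and 68.7 CPM in model mice. Rhy mice had 24.5, 101 and 84.1 CPM and DXM mice 85.6, 25.7 and 33.7 CPM. The control group spanned the whole range of the series, with its mouse 1 the highest and its mouse 3 the lowest of 12, an 18.4-fold span. Model 3, the top library for H2-Ab1, was not set apart from model 1 and model 2 for H2-Aa.

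H2-Eb1, the beta chain of I-E, spread the most of the 7. It was measured at 187, 6.19 and 2.25 CPM in control mice and at 34.4, 37.8 and 12.3 CPM in model mice. Rhy mice had 10.02, 51.7 and 37.6 CPM, and DXM mice 57.0, 4.39 and 4.46 CPM. Control 1 exceeded control 3 by 83.0-fold, and DXM 1 stood far above DXM 2 and DXM 3. The SD of log2 CPM within groups was 2.105, and 0.651% of all 16904 genes tested had a larger one, against a median of 0.4204 over those genes.

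The invariant chain Cd74 was the most abundant of the set per length, with group means of 212 to 402 FPKM (fragments scaled by gene length and library size). It was at 885, 299 and 269 CPM in control mice, 333, 335 and 1079 CPM in model mice, 118, 437 and 350 CPM in Rhy mice and 354, 404 and 384 CPM in DXM mice. Control 1 and model 3 were again high and Rhy 1 low, while the DXM mice differed by 1.141-fold at most. H2-Ab1 came next with group means of 55.4 to 78.6 FPKM, and Ciita was lowest with 0.976 to 1.71 FPKM. In between, the group means were 25.3 to 52.2 FPKM for H2-Aa, 18.2 to 55.2 for H2-Eb1, 10.2 to 17.9 for H2-DMa and 5.56 to 16.3 for H2-DMb1, and each neighbouring pair of these 4 overlapped in its libraries.

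The DM chains edit the peptide in the groove. H2-DMa stood at 53.1, 15.7 and 18.6 CPM in control mice, 14.1, 13.2 and 58.0 CPM in model mice, 12.2, 20.2 and 18.3 CPM in Rhy mice and 17.3, 21.8 and 20.7 CPM in DXM mice. H2-DMb1 stood at 63.0, 2.36 and 6.81 CPM in control mice, 8.71, 10.2 and 17.8 CPM in model mice, 5.91, 12.5 and 13.5 CPM in Rhy mice and 9.94, 7.52 and 7.85 CPM in DXM mice. H2-DMa was high in control 1 and model 3 alike, whereas H2-DMb1 was high mainly in control 1. The ratio of H2-DMb1 to H2-DMa in FPKM ran from 0.166 in control 2 to 1.31 in control 1.

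Ciita, the coactivator gene, was measured at 25.5, 11.4 and 8.23 CPM in control mice and at 12.4, 13.7 and 24.1 CPM in model mice. Rhy mice had 4.71, 9.53 and 13.9 CPM and DXM mice 12.0, 21.1 and 16.0 CPM. Its order followed that of Cd74 at the ends, with control 1 and model 3 on top and Rhy 1 at the bottom. Its SD within groups was 0.657 on the log2 scale, the smallest of the 7, and 25.4% of all genes had a larger one.

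**Figure D1:**
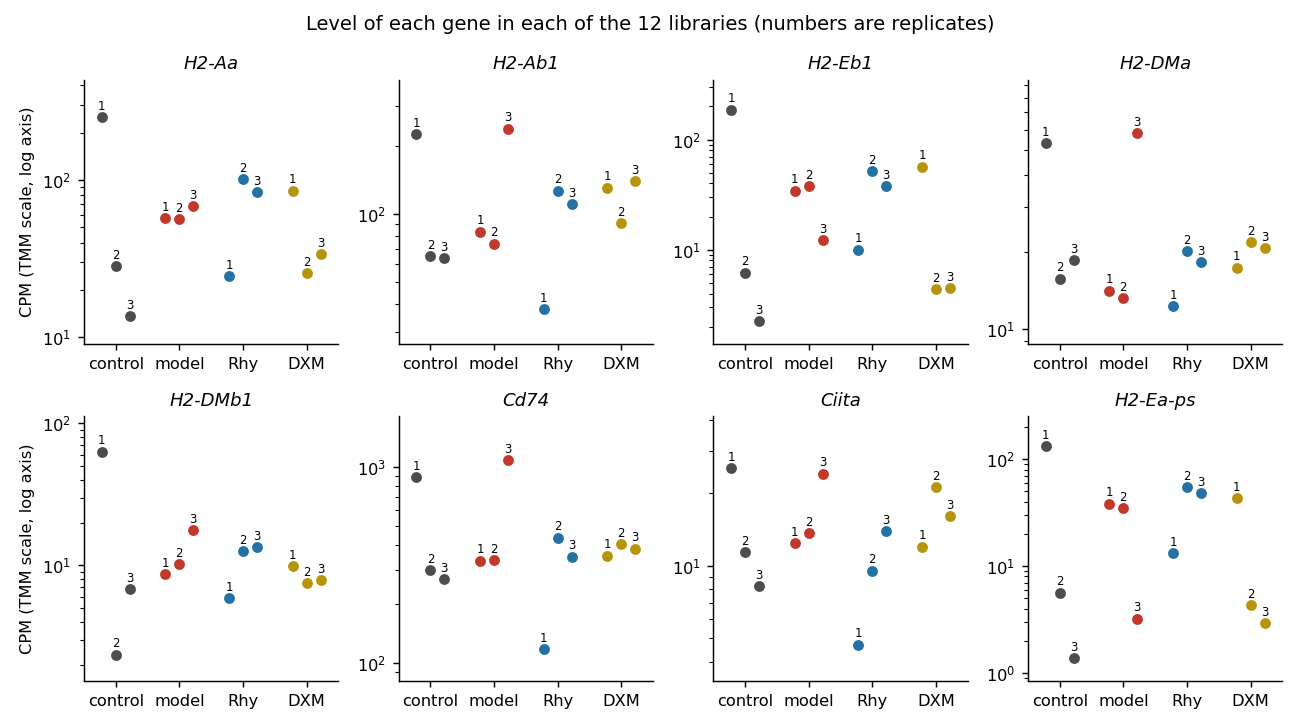
CPM (TMM scale, log axis) of the 7 genes and of H2-Ea-ps in each library, with 1 point per mouse, numbered by replicate, and the groups along the horizontal axis. Control 1 is high in every panel, model 3 is high for H2-Ab1, H2-DMa, Cd74 and Ciita and low for H2-Ea-ps, and the ranges of the groups overlap in all 8 panels.

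The first comparison, model against control, asks how the class II set stood in DSS colitis. None of the 7 genes passed the test, with 0 past an adjusted p of 0.05 and 0 past an unadjusted p of 0.05 by the quasi-likelihood test of edgeR. DESeq2 and limma on log2(FPKM + 1) also called 0 of them. Over all 16904 genes, 0% passed the adjusted threshold and 9.62% the unadjusted one. The log2 fold change was above 0 for 3 genes and below 0 for 4, with a median of -0.03, where 50.7% of all genes were above 0, 49.3% below it, and the median of all genes was 0.0064. The groups overlapped for 7 of 7 genes, whereas every model library lay above every control library for 10.4% of all genes and below for 6.61%.

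H2-DMb1 had the smallest unadjusted p of the 7 in this comparison, with a log2 fold change of -0.97 ± 0.85 (SE, n = 3 per group) and an adjusted p of 0.739 by edgeR. H2-Eb1 gave -1.21 ± 1.37 and H2-Aa -0.68 ± 0.88, while Cd74 gave 0.27 ± 0.59. These values rested on control 1. Without that library they became 1.41 for H2-DMb1, 2.75 for H2-Eb1, 1.53 for H2-Aa and 1.04 for Cd74, and 3 of the 7 genes reached an unadjusted p under 0.05, none of them an adjusted one, where 9.73% of all genes did. With the replicate number as a block H2-Eb1 gave 0.49, and limma on log2(FPKM + 1) gave 0.61 for it and 0.30 for H2-Aa. Without model 3, Cd74 moved to -0.57, H2-Ab1 from 0.16 to -0.62 and H2-DMa from -0.03 to -1.13.

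The H2-Ea-ps settings also moved this comparison, and in opposite directions. Among the 5 libraries low in H2-Ea-ps, model 3 lay above control 2 and control 3 for 7 of 7 genes, with log2 fold changes of 1.298 (Ciita) to 1.95 (H2-DMb1), and 7 reached an unadjusted p under 0.05, where 4.68% of all genes did. Among the 7 libraries high in H2-Ea-ps, model 1 and model 2 lay below control 1 for 7 of 7, with -0.99 (Ciita) to -2.76 (H2-DMb1), and 5 reached the unadjusted threshold, where 18.8% of all genes did. Each set rests on 1 library in 1 group. Model 1 and model 2 were closer than any other pair, with a common dispersion of 0.00201 between them. The second set thus holds control 1 against little more than 1 library. The spread in these fits comes from the other libraries, so no counts past a threshold are given. The share of all genes lying wholly to 1 side was not computed for either set. Only the size of the differences is read here.

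Rhy against model asks whether rhynchophylline moved the set in colitis. Here too 0 of 7 genes passed the adjusted or the unadjusted threshold in edgeR, beside 0% and 3.72% of all genes, and DESeq2 and limma called 0. Ciita had the smallest unadjusted p, with -0.82 ± 0.47 (SE, n = 3 per group) and an adjusted p of 1.00 by edgeR. Cd74 gave -0.95 ± 0.60, H2-DMa -0.75 ± 0.57 and H2-Ab1 -0.53 ± 0.60, while H2-Aa (0.20 ± 0.87) and H2-Eb1 (0.24 ± 1.35) lay above 0. In all, 5 of 7 were below 0, with a median of -0.53, against 51.7% of all genes below 0 and 48.3% above. The groups overlapped for 7 of 7, whereas 5.51% of all genes had every Rhy library above every model library and 6.02% below.

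Leaving out Rhy 2 turned H2-Aa to -0.16 and H2-Eb1 to -0.23. Without control 3, model 3 and Rhy 1, the libraries low in Hoxb13 and a setting chosen after seeing the data, Cd74 gave 0.26, H2-DMa 0.52, H2-Ab1 0.62 and H2-DMb1 0.49, again with 0 genes called. Among the 7 libraries high in H2-Ea-ps, which hold all Rhy mice, the values were 0.25 for H2-Ab1, -0.12 for Cd74, -0.44 for Ciita and -0.09 for H2-Eb1.

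DXM against model sets dexamethasone beside DSS alone. No gene of the set passed either threshold in edgeR, where 0% of all genes passed the adjusted and 7.69% the unadjusted one, and DESeq2 and limma called 0. The log2 fold change was below 0 for 7 of 7, with a median of -0.37, where 51.5% of all genes were below 0 and 48.5% above. The groups overlapped for 7 of 7, whereas 10.4% of all genes had every DXM library above every model library and 12.2% below. The smallest unadjusted p was that of Cd74, with -0.61 ± 0.59 (SE, n = 3 per group) and an adjusted p of 0.800 by edgeR. Without model 3, the common direction ended, with 0.20 for Cd74, 0.63 for H2-Ab1, 0.57 for H2-DMa and 0.35 for Ciita. Among the 5 libraries low in H2-Ea-ps all 7 genes stayed below 0, from -0.38 (Ciita) to -1.48 (H2-Eb1) against the lone model 3, and 4 reached an unadjusted p under 0.05, where 9.18% of all genes did. Among the 7 others, 6 of 7 were above 0 for the lone DXM 1, set against the model mice that were closer than any other pair. The share of all genes above 0 in that set was not computed, so no reversal of direction is read from it. With upper quartile scaling, Ciita moved from -0.03 to 0.05.

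A test of any difference among the 4 groups, which also covers Rhy and DXM against control, called 0 of 7 genes. The smallest unadjusted p was 0.332 for H2-DMb1, with an adjusted p of 0.664 by edgeR, and 0% of all genes passed the adjusted and 11.5% the unadjusted threshold. These p-values do not show that the groups were alike: the standard errors ran from 0.47 to 1.37 on the log2 scale.

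**Figure D2:**
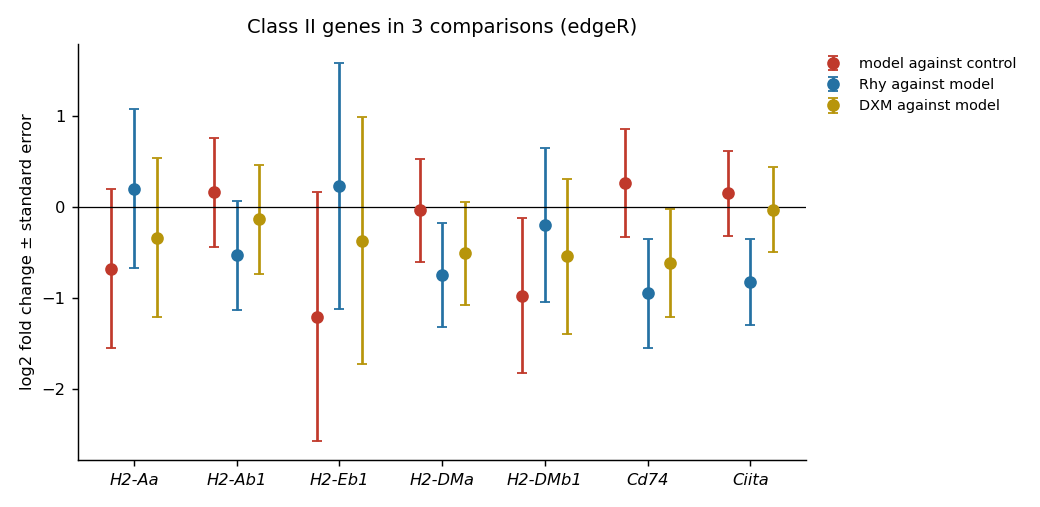
log2 fold change ± SE (edgeR, n = 3 per group) of the 7 genes in model against control, Rhy against model and DXM against model, with a line at 0. The bars of H2-Eb1 are the longest, with SE of 1.35 to 1.37, and all 7 values of DXM against model lie below 0.

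Over all 12 mice the set could be sorted into 2 patterns. H2-Ab1, Cd74, H2-DMa and Ciita went together, with a Pearson r of log2 CPM of 0.742 to 0.935 over the 12 libraries in their 6 pairs, and of 0.791 to 0.967 after subtraction of the group means. H2-Eb1 went with H2-Aa (r = 0.936) and less with those 4 genes (r = 0.231 to 0.452, and 0.300 to 0.552 after that subtraction). H2-Aa was not apart from the 4, with r of 0.493 (Ciita) to 0.719 (H2-Ab1). After the subtraction it had 0.573 (H2-DMa) to 0.797 (H2-Ab1) with them. H2-DMb1 lay between, with r of 0.810 to H2-Aa and 0.743 to H2-Ab1. With model 1 and model 2 as 1 library the ranges were 0.770 to 0.939 for the 6 pairs and 0.248 to 0.491 for H2-Eb1 with the 4 genes. The patterns leaned on the libraries at the ends. Without the 2 farthest from the median of the first gene of each pair, the 6 pairs had r of 0.553 to 0.865, whereas H2-Eb1 had 0.628 with H2-Ab1, 0.050 with Cd74 and -0.20 with H2-DMa and with Ciita. H2-Eb1 kept 0.866 with H2-Aa. The points share tissue composition and library, the genes were grouped after their values were seen, and no test was made of these r values.

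H2-Ea-ps, which lies near H2-Eb1, was added after its values were seen. It was at 133, 5.63 and 1.37 CPM in control mice, 38.3, 34.8 and 3.22 CPM in model mice, 13.3, 54.5 and 47.8 CPM in Rhy mice and 43.3, 4.34 and 2.94 CPM in DXM mice. It followed H2-Eb1 with r = 0.956 over 12 libraries and 0.927 without the 2 farthest, and 0 of its 50-base words were shared with transcripts of other genes in GENCODE M21.

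Set against H2-Ab1 in the same library, H2-Eb1 split the mice into separate ranges. In FPKM the ratio of H2-Eb1 to H2-Ab1 was 1.14, 0.132 and 0.0490 in control mice and 0.569, 0.708 and 0.0714 in model mice. It was 0.368, 0.564 and 0.472 in Rhy mice and 0.603, 0.0668 and 0.0442 in DXM mice. Control 2, control 3, model 3, DXM 2 and DXM 3 lay at or below 0.132 and the other 7 libraries at or above 0.368, with all 3 Rhy mice among the higher ones.

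The ratio of H2-Ea-ps to H2-Ab1 put the same 5 libraries low, at 0.0321 to 0.208, and the same 7 high, at 0.791 to 1.41. H2-Aa per H2-Ab1 was 0.187 to 0.384 in those 5 libraries and 0.568 to 0.968 in the 7. Its largest gap was not at that line but between 0.251 (model 3) and 0.384 (control 2). Cd74 per H2-Ab1 ran only from 3.15 to 5.36, a 1.70-fold range, and its 2 lowest values, those of DXM 1 and DXM 3, fell on either side of the H2-Eb1 split. The split crossed the control, model and DXM groups and was not tested against treatment, since the libraries were sorted by the measured ratio itself. Mitochondrial genes took 6.33% to 17.0% of counts in the 5 low libraries and 8.90% to 25.7% in the 7 others. Of the libraries low in Hoxb13, control 3 and model 3 fell in the low range and Rhy 1 in the high one. The part of either measure in the split was not tested. H2-K1, a class I chain gene of the same chromosome, ranked 7th among all genes by the r of its log2 CPM with the log2 ratio of H2-Eb1 to H2-Ab1 (0.832), at 369 to 1714 CPM, and H2-Ea-ps ranked first (0.968). The genes between them in rank all lie on other chromosomes. These were Gm15753 (0.905), Snapc2 (0.867), Gm3776 (0.842), Dctn5 (0.836) and Oas1g (0.834).

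**Figure D3:**
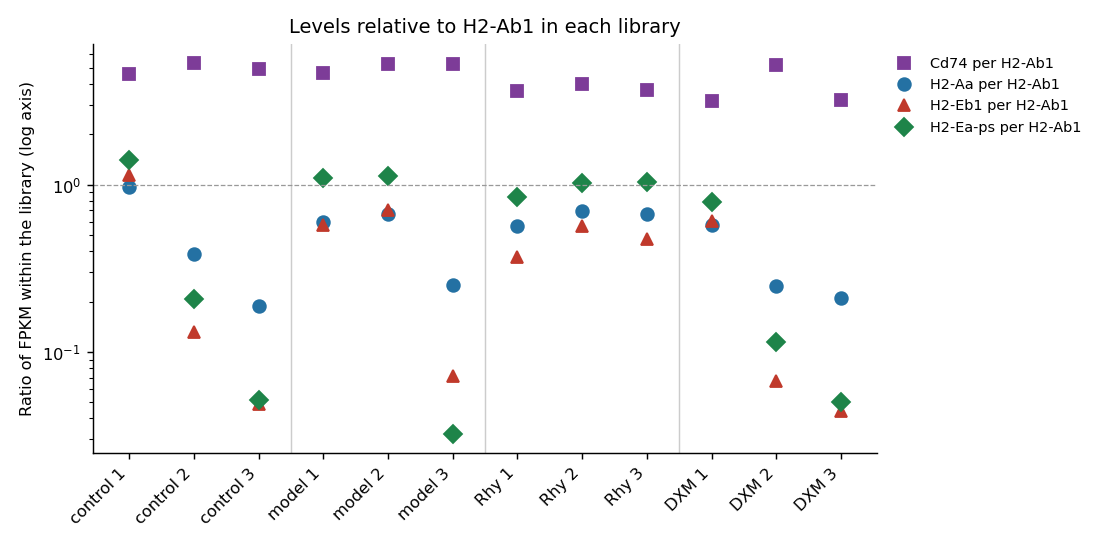
Ratio of FPKM within each library (log axis) of Cd74, H2-Aa, H2-Eb1 and H2-Ea-ps to H2-Ab1, with 1 point per library and gene and the 12 libraries along the horizontal axis. Cd74 stays between 3.15 and 5.36, whereas H2-Eb1 falls to 0.132 or less in control 2, control 3, model 3, DXM 2 and DXM 3.

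**Figure D4:**
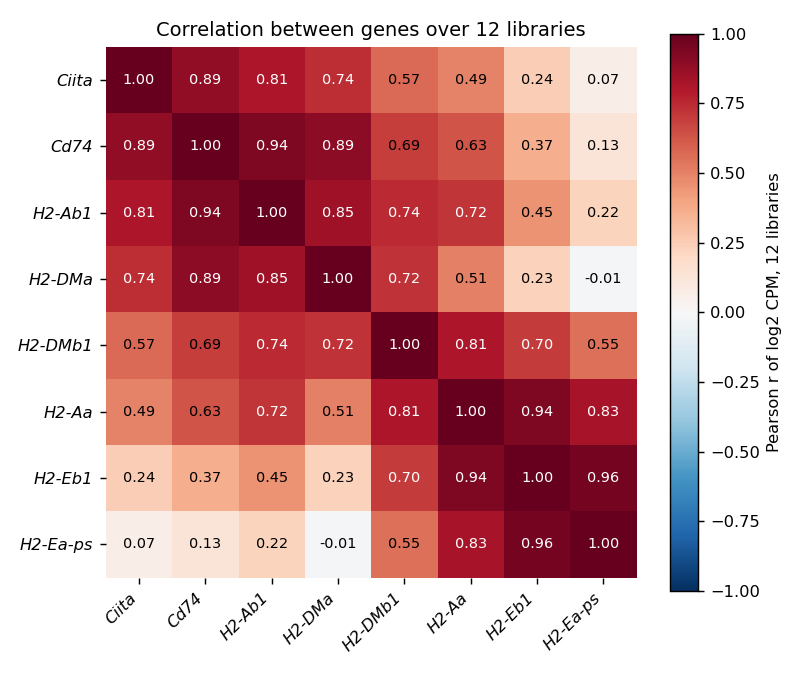
Pearson r of log2 CPM over 12 libraries between the 7 genes and H2-Ea-ps, in a color scale from -1 to 1 with each r printed. H2-Ab1, Cd74, H2-DMa and Ciita form a block of r from 0.742 to 0.935. H2-Aa, H2-Eb1 and H2-Ea-ps have r of 0.827 to 0.956 among themselves, and H2-Aa has 0.493 to 0.719 with the first block.

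The wider pathway was read from lists of 48 further genes, of which 44 passed the filter on low counts. None passed in any comparison at an adjusted p under 0.05. At an unadjusted p under 0.05, 6 were lower and 0 higher in model than in control mice, where 4.51% of all genes were lower and 5.11% higher. In Rhy against model 1 was higher and 0 lower, beside 1.74% and 1.98% of all genes, and in DXM against model 1 was higher and 0 lower, beside 4.89% and 2.8%.

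The other class II chains, H2-Oa and H2-Ob of the DM inhibitor DO with H2-DMb2 and H2-Eb2, gave 0 of 4 at the unadjusted threshold in each comparison. H2-Eb2 came nearest in model against control (0.90 on the log2 scale), H2-DMb2 in Rhy against model (-0.89) and H2-Oa in DXM against model (0.59). Their summed level was lowest in Rhy 1, at 2.996 CPM against 11.2 to 45.8 CPM in the other libraries.

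Of the proteases and other processing enzymes, 7 of 9 were tested. Ctss, cathepsin S, which trims the invariant chain, gave -0.58 ± 0.23 (SE, n = 3 per group) in model against control, with an adjusted p of 0.493 by edgeR. Ctsl, cathepsin L, gave 0.43 ± 0.19 in DXM against model, with an adjusted p of 0.643 by edgeR, and Lgmn gave -0.50 in Rhy against model. Among the costimulatory genes, Cd274, which encodes PD-L1, gave -0.89 in model against control, Cd86 -0.94 in Rhy against model and Cd80 0.76 in DXM against model.

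The factors at the X and Y boxes had a summed level of 212 to 243 CPM over all 12 libraries, while the summed level of the 7 class II genes ran from 213 to 1689 CPM. No factor reached an unadjusted p under 0.05. Nfya, a subunit of the Y box factor, gave 0.40 in model against control, Rfx5 of the X box factor -0.53 in Rhy against model and Rfxap -0.34 in DXM against model.

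Ifng, the gene of interferon gamma, was at 0 in 5 libraries and at most 0.225 CPM, below the filter. Jak2, a kinase of its receptor, had the smallest unadjusted p of the pathway in model against control, with -0.79 ± 0.23 (SE, n = 3 per group) and an adjusted p of 0.459 by edgeR. It gave 0.22 in Rhy against model, and Ifngr2 gave -0.31 in DXM against model. Of 13 genes that interferon gamma induces, 0 reached the unadjusted threshold in model against control, beside 9.62% of all genes. Gbp5, a guanylate-binding protein, gave -0.89 there and 0.91 in Rhy against model, and Gbp4 gave 0.98 in DXM against model. The 13 summed to 759 CPM in control 1, 677 in DXM 2, 562 in model 3 and 538 in Rhy 1. In the other libraries their sum was 281 to 475 CPM.

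Class II genes mark certain immune cells, and in pieces of whole colon fewer such cells and less RNA per cell cannot be told apart. The 8 B cell markers summed to 211, 159 and 11.6 CPM in control mice, 177, 171 and 133 CPM in model mice, 1.63, 123 and 116 CPM in Rhy mice and 183, 152 and 157 CPM in DXM mice. Ms4a1, Pax5, Blk and Cr2 were at 0 in Rhy 1. Control 1, the highest or second highest library for each of the 7 class II genes, was also highest for the B cell sum, and Rhy 1 was lowest for the B cell sum and for the class II sum.

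The 8 macrophage markers summed to 242, 94.7 and 123 CPM in control mice, 88.0, 89.4 and 96.4 CPM in model mice, 35.4, 135 and 185 CPM in Rhy mice and 226, 112 and 289 CPM in DXM mice. Their log2 fold change was below 0 for 8 of 8 in model against control, where 49.3% of all genes were, and 3 were lower at an unadjusted p under 0.05, beside 4.51% of all genes. In DXM against model it was above 0 for 8 of 8, beside 48.5% of all genes, and 4 were higher at that threshold, beside 4.89%. None passed an adjusted p of 0.05 in edgeR. DESeq2 called Mrc1, the mannose receptor gene, in DXM against model (2.17 on the log2 scale, adjusted p 0.0228), and Mrc1, Epcam and the muscle marker Myh11 in its test of the 4 groups. The dendritic cell markers summed to 11.7 to 37.1 CPM in control, 11.8 to 14.2 CPM in model, 5.14 to 20.8 CPM in Rhy and 15.2 to 24.9 CPM in DXM mice. The T cell markers summed to 24.8 to 46.1 CPM in control, 27.0 to 37.4 CPM in model, 8.05 to 27.5 CPM in Rhy and 15.4 to 38.3 CPM in DXM mice. Other lists leaned to 1 side too, with 0 genes past edgeR's adjusted threshold. In model against control 9 of 9 epithelial and 7 of 8 dendritic cell markers were below 0, beside 49.3% of all genes. Of these, 3 and 2 were lower at an unadjusted p under 0.05, beside 4.51%. In Rhy against model 8 of 8 B cell and 7 of 7 T cell markers were below 0, beside 51.7%. There 8 of 8 macrophage markers were above 0, beside 48.3%. The high class II level of model 3 came with sums of 133, 96.4 and 14.2 CPM for B cell, macrophage and dendritic cell markers, against 177 and 171, 88.0 and 89.4, and 11.8 and 13.1 CPM in model 1 and model 2. The part of these cells in the class II levels was not tested.

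**Figure D5:**
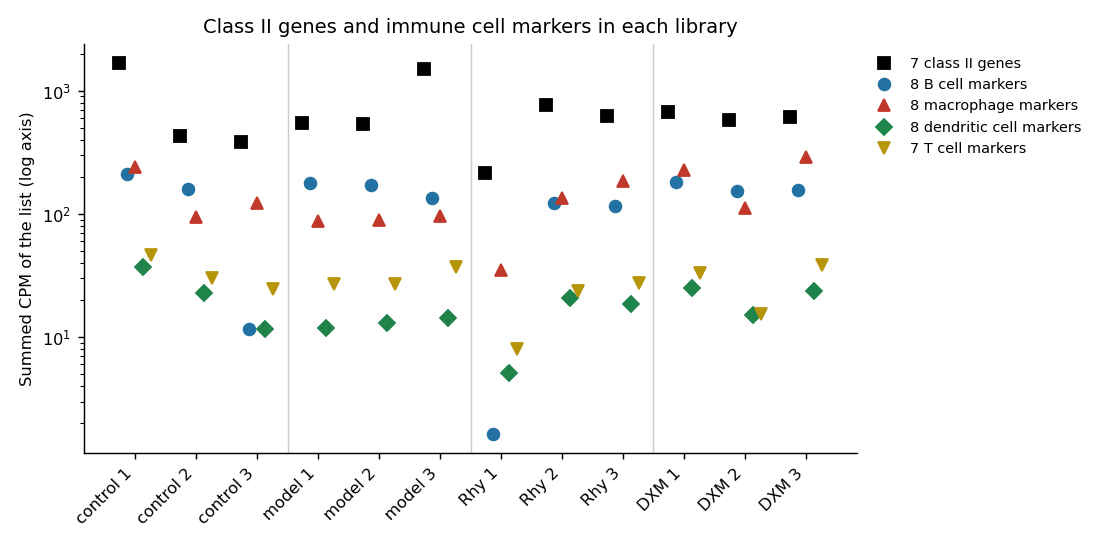
Summed CPM (log axis) of the 7 class II genes and of B cell, macrophage, dendritic cell and T cell markers in each of the 12 libraries, with 1 point per list and library. Rhy 1 is lowest in all 5 sums, and model 3 is high in the class II sum (1499 CPM) but not in the B cell sum (133 CPM).

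The genes most like the mean log2 CPM of the 7 over the 12 libraries were Ccm2 (r = 0.876), Krt18 (0.844), Eaf2 (0.834), Mdk (0.831), Ddit4l (0.829), Naaa (0.825), Gm9442 (0.823), Sart1 (0.823), Crlf2 (0.821) and Trim15 (0.819). Krt18, a keratin of simple epithelia, ran from 203 to 744 CPM. Ddit4l and Gm9442 were low, at 0.342 to 1.87 CPM and 0 to 5.62 CPM. Of the 50-base words of H2-Aa, 0.488% were shared with other genes, Ddit4l among them. For comparison, the 7 genes themselves had r of 0.707 (Ciita) to 0.938 (H2-Aa) with their own mean. Genes and libraries are shared in these r values, which are descriptions of 12 mice.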

How the data were processed

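RNA-Seq was done on the colon of 12 mice, 3 in each of the control, model, Rhy and DXM groups, as the labels give them. The counts deposited by the authors are whole reads per gene, and the FPKM values deposited by the authors divide them by gene length and library size. Per the submitters' processing notes, HISAT2 2.0.5, featureCounts 1.5.0-p3, DESeq2 1.16.1 and mm10 were used. All columns belonged to these samples.

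Tests used edgeR 4.0.16 under R 4.3.3 (counts scaled by TMM, filterByExpr at a minimum count of 10, glmQLFit and glmQLFTest, two-sided, all 12 libraries in 1 fit, Benjamini-Hochberg adjustment over the 16904 of 54532 genes kept). The threshold was an adjusted p under 0.05. log2 CPM carried a prior count of 2. The alternatives were DESeq2 1.42.0, limma 3.58.1 on log2(FPKM + 1) and log2(FPKM + 0.1), RLE or upper quartile scaling, no filter on low counts, only the groups compared, a replicate block, model 1 and model 2 as 1 library, and each library left out. The settings without libraries under 5 CPM of Hoxb13, and without those over or under 10 CPM of H2-Ea-ps, were added after the data were seen.

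The genes and lists were chosen with earlier results of these data known. Named were all 7 genes in every library, the gene of each pathway list with the smallest unadjusted p in each comparison, any gene past edgeR's adjusted threshold, and the 10 genes most correlated with the mean of the 7. Marker lists came from general knowledge. March1 and March8 of the processing list were not matched by symbol. Deposited coordinates equalled those of GENCODE M21 (GRCm38) for 98.3% of gene identifiers in both, and those of the deposited table are printed. Sequences are RefSeq's, and H2-Ab1, Cd74 and Ciita are named only.

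Same-numbered mice of the model and control groups deviated together from their group means (r = 0.210, 0.104 and 0.363), whereas those of Rhy and model (r = -0.231, 0.142 and -0.198) and of DXM and model (r = -0.015, -0.089 and -0.139) did not in every pair. The labels do not say that numbers mark a litter or batch.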

Additional observations from a re-analysis of the deposited data

How the results depend on the processing

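Over the 24 alternatives, each of the 93 counts of class II genes past the adjusted threshold was 0, and the smallest adjusted p of any of them was 0.133. Of the 497 log2 fold changes recomputed, 426 kept their sign and 71 turned it, 29 of the latter when 1 library was left out.

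With 1 library left out, model against control ran from -1.21 to 1.53 for H2-Aa, -0.62 to 1.04 for H2-Ab1, -1.80 to 2.75 for H2-Eb1, -1.13 to 0.73 for H2-DMa, -1.50 to 1.41 for H2-DMb1, -0.57 to 1.04 for Cd74 and -0.24 to 0.77 for Ciita. The highest of each was the value without control 1. Rhy against model ran from -0.16 to 0.61 for H2-Aa, -0.84 to 0.25 for H2-Ab1, -0.23 to 0.67 for H2-Eb1, -1.09 to 0.34 for H2-DMa and -0.40 to 0.21 for H2-DMb1. DXM against model ran from -0.42 to 0.63 for H2-Ab1, -2.67 to 0.12 for H2-Eb1, -0.85 to 0.57 for H2-DMa, -0.90 to 0.20 for Cd74 and -0.26 to 0.35 for Ciita.

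In limma on log2(FPKM + 1), model against control gave 0.30 for H2-Aa, 0.61 for H2-Eb1 and 0.0064 for H2-DMb1, and DXM against model gave 0.063 for H2-Ab1. With + 0.1 these were 0.34, 0.79, 0.14 and 0.066, with -0.0013 for H2-Aa in Rhy against model and 0.0057 for Ciita in DXM against model. Upper quartile scaling gave 0.049 for Ciita in DXM against model. Model 1 and model 2 as 1 library gave 0.30 for H2-DMa in model against control.

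The replicate block gave 0.49 for H2-Eb1 in model against control and 0.0010 for Ciita in DXM against model, with 0 of the 7 genes called in each comparison, so the pairing changed no call.

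Without the libraries under 5 CPM of Hoxb13, a setting chosen after seeing the data, model against control gave -0.92 for H2-Ab1, -0.86 for Cd74 and -0.53 for Ciita. Rhy against model gave 0.62 for H2-Ab1, 0.52 for H2-DMa, 0.49 for H2-DMb1 and 0.26 for Cd74. DXM against model gave 0.63 for H2-Ab1, 0.56 for H2-DMa, 0.20 for Cd74 and 0.35 for Ciita.

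Without the 7 libraries over 10 CPM of H2-Ea-ps, chosen likewise, model against control gave 1.71 for H2-Aa, 1.56 for H2-Eb1, 1.76 for H2-DMa and 1.95 for H2-DMb1, and Rhy against model had no library left. Without the 5 under 10 CPM, model against control gave -1.54 for H2-Ab1, -1.43 for Cd74 and -0.99 for Ciita. Rhy against model then gave 0.25 for H2-Ab1, -0.092 for H2-Eb1, 0.34 for H2-DMa and 0.21 for H2-DMb1. DXM against model gave 0.60 for H2-Aa, 0.74 for H2-Ab1, 0.67 for H2-Eb1, 0.36 for H2-DMa, 0.085 for H2-DMb1 and 0.094 for Cd74. The cause of these turns was not tested. Over all genes, DESeq2 called 46, 5 and 53 in the 3 comparisons and 407 in the test of the 4 groups, where edgeR called 0.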
